A study of Mus musculus with 10 samples.

Results

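Messenger RNA of 10 genes that the tumour suppressor p53 is known to switch on was followed in mouse liver and liver tumours. The genes were Cdkn1a, Ccng1, Btg2, Zmat3, Mdm2, Bax, Eda2r, Phlda3, Trp53inp1 and Gdf15, chosen by name, and they were 10 of 24062 genes in the deposited table. Mice were fed a normal diet or a Western diet, the latter a model of fatty liver disease. They also received carbon tetrachloride (CCl4), a chemical that injures liver cells once the liver has activated it, or its oil vehicle. Liver was taken after 12 or 24 weeks, and each of the 8 liver libraries was a pool of 4 mice, with 1 pool for each combination of diet, treatment and duration. Another 2 libraries came from liver tumours, which the labels call hepatocellular carcinoma, each from 1 mouse given Western diet and CCl4 for 24 weeks. The labels do not give strain, sex, age or dose. No condition had a replicate pool, so the 12-week and 24-week pools served as repeats, and the spread between them is not a spread between animals.

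p53 is a transcription factor that is held at low levels by the ubiquitin ligase Mdm2, which is itself a p53 target, so the pathway contains a feedback loop. When DNA is damaged or a cell is otherwise stressed, p53 accumulates and binds a DNA element made of a pair of similar short motifs. Its targets slow the cell cycle, lower survival signalling, open mitochondria during apoptosis, or signal to other tissues. Most of these genes also respond to other transcription factors, so their messenger RNA is not a direct reading of p53 activity.

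To show what such an element looks like in these genes, the promoters of the members were searched for the p53 consensus element, taken as 20 bases made of a pair of 10-base motifs with no spacer. RefSeq promoter windows (GRCm38.p6, 250 bases before to 50 bases after each annotated start) were held for 8 of the 10 members. Both strands were searched. Trp53inp1 and Zmat3 were not matched. An exact element was in none of the 8 members and in 3 of 27025 genes (0.0111%). With at most 1 mismatch, an element was in Cdkn1a and Ccng1, and in 29 genes of the whole table (0.107%). With at most 3 mismatches Bax was added, and 7.2% of all genes then held one. A single exact 10-base motif, with or without the full element, was in Bax, Ccng1, Cdkn1a and Mdm2, and in 9.55% of all genes. These allowances were chosen after the sequences were seen, and a match describes letters in the window, not binding. In Mdm2 the known p53 elements lie in the first intron, outside the window. The best matches are printed 5′ to 3′ on the gene's strand, and capitals mark the 4 central bases of each 10-base motif.
Cdkn1a, chr17:29090928-29090947, plus strand: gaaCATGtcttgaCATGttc
Ccng1, chr11:40755462-40755481, minus strand: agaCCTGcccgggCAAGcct
Bax, chr7:45467090-45467109, minus strand: agcATATcccaggCAAGctt
Mdm2, single 10-base motif, chr10:117710935-117710944, minus strand: gaaCTTGcct

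The Cdkn1a element lay 51 to 32 bases before the upstream start that RefSeq annotates, and its mismatch was outside the central bases. The Ccng1 element lay 195 to 176 bases before the start, and its mismatch was in a central position. Because these were the members with the closest matches, 100 bases around each are shown, with the element in capitals.
Cdkn1a, chr17:29090879-29090978, plus strand: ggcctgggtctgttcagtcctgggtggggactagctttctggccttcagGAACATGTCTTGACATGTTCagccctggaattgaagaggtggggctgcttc
Ccng1, chr11:40755417-40755516, minus strand: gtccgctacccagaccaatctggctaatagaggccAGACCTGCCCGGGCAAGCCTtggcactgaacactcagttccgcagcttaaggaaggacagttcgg

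Read totals ran from 23206229 to 30137802 per library, and values are normalised read counts. All 10 members passed the filter (2 or more libraries with a value of 1 or above) and so were among 12648 tested genes. Per kilobase of annotated exon, the highest median level over the 8 liver pools was that of Trp53inp1, at 20.9, and Ccng1 (17.9) and Bax (16.2) came next. Btg2 (12.6), Cdkn1a (9.89), Gdf15 (8.23) and Mdm2 (6.41) were intermediate. Phlda3 (3.28), Zmat3 (1.27) and Eda2r (1.15) were the lowest. Liver pools of Ccng1 ran from 10.2 to 28.8 per kilobase and those of Bax from 12.7 to 20.3, so these neighbours did not separate beyond their spread. The members sit on 9 chromosomes, and only Phlda3 and Btg2 share one (GENCODE annotation of GRCm38, chr1:135766119-135769136 and chr1:134075170-134079120). Cdkn1a shares 273 of its exon bases with an annotated transcript on the opposite strand, and Bax shares 192 with another gene on its own strand. Reads there cannot be told apart without knowing how the counting was done.

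Of the genes that slow division, Cdkn1a, Btg2, Zmat3 and Ccng1 all rose with CCl4 averaged over both diets, by 0.52 to 1.10 on the log2(value + 1) scale. Cdkn1a encodes p21, which blocks the kinases that drive the cell cycle. At 12 and 24 weeks its normalised read count was 15.4 and 39.6 on normal diet with oil, and 30.6 and 66.1 on normal diet with CCl4. It was 26.0 and 29.4 on Western diet with oil, and 76.9 and 68.8 on Western diet with CCl4. In each of the 4 pairs matched for diet and duration the CCl4 pool was the higher, although the 24-week oil pool on normal diet (39.6) exceeded the 12-week CCl4 pool (30.6), so the treatments overlapped. Averaged over both diets, Cdkn1a rose with CCl4 by 1.10 ± 0.22 (SE, log2(value + 1) scale, 4 pools against 4, limma adjusted p = 0.0064). Without the 24-week Western diet oil pool the change in Cdkn1a was 0.96 and missed the threshold of 0.05 (limma adjusted p = 0.0512).

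Btg2 encodes an antiproliferative protein that recruits the enzymes removing poly-A tails from messenger RNA. Its normalised read count at 12 and 24 weeks was 15.6 and 22.4 on normal diet with oil and 37.4 and 42.7 with CCl4. Its count on Western diet was 14.6 and 31.8 with oil and 40.4 and 42.8 with CCl4. All 4 CCl4 pools were therefore above all 4 oil pools, and the Western diet oil pool at 24 weeks came closest to them. Btg2 rose by 0.98 ± 0.15 with CCl4 averaged over both diets (limma adjusted p = 0.00206), and it passed the threshold whichever library was left out.

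Zmat3, a zinc-finger RNA-binding protein, and Ccng1, a cyclin that feeds back on Mdm2, were both lowest where neither exposure was given. Zmat3 stood at 6.70 and 7.37 (12 and 24 weeks) on normal diet with oil, against 13.2 and 16.2 with CCl4. On Western diet it stood at 15.9 and 11.6 with oil and 21.05 and 15.8 with CCl4. All 6 exposed pools of Zmat3 exceeded both unexposed pools. How many of all tested genes show that order was not counted. Ccng1 stood at 35.9 and 50.5 on normal diet with oil and at 62.5 and 67.8 with CCl4. With Western diet it stood at 59.6 and 63.1 with oil and at 101.1 and 69.1 with CCl4. Again the 6 exposed pools were above the unexposed ones, and the 12-week pool with both exposures was the highest. With CCl4 averaged over both diets, Zmat3 rose by 0.68 ± 0.14 (limma adjusted p = 0.00743) and Ccng1 by 0.52 ± 0.14 (limma adjusted p = 0.0239). The call for Zmat3 was lost without the 24-week Western diet oil pool (limma adjusted p = 0.056). That for Ccng1 was lost without any 1 of 5 pools (the 12-week oil pool on normal diet, and both durations of CCl4 on normal diet and of oil on Western diet), with limma adjusted p-values from 0.0525 to 0.101. Without the 12-week pool with both exposures, the change in Ccng1 was 0.33.

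**Figure D1:**
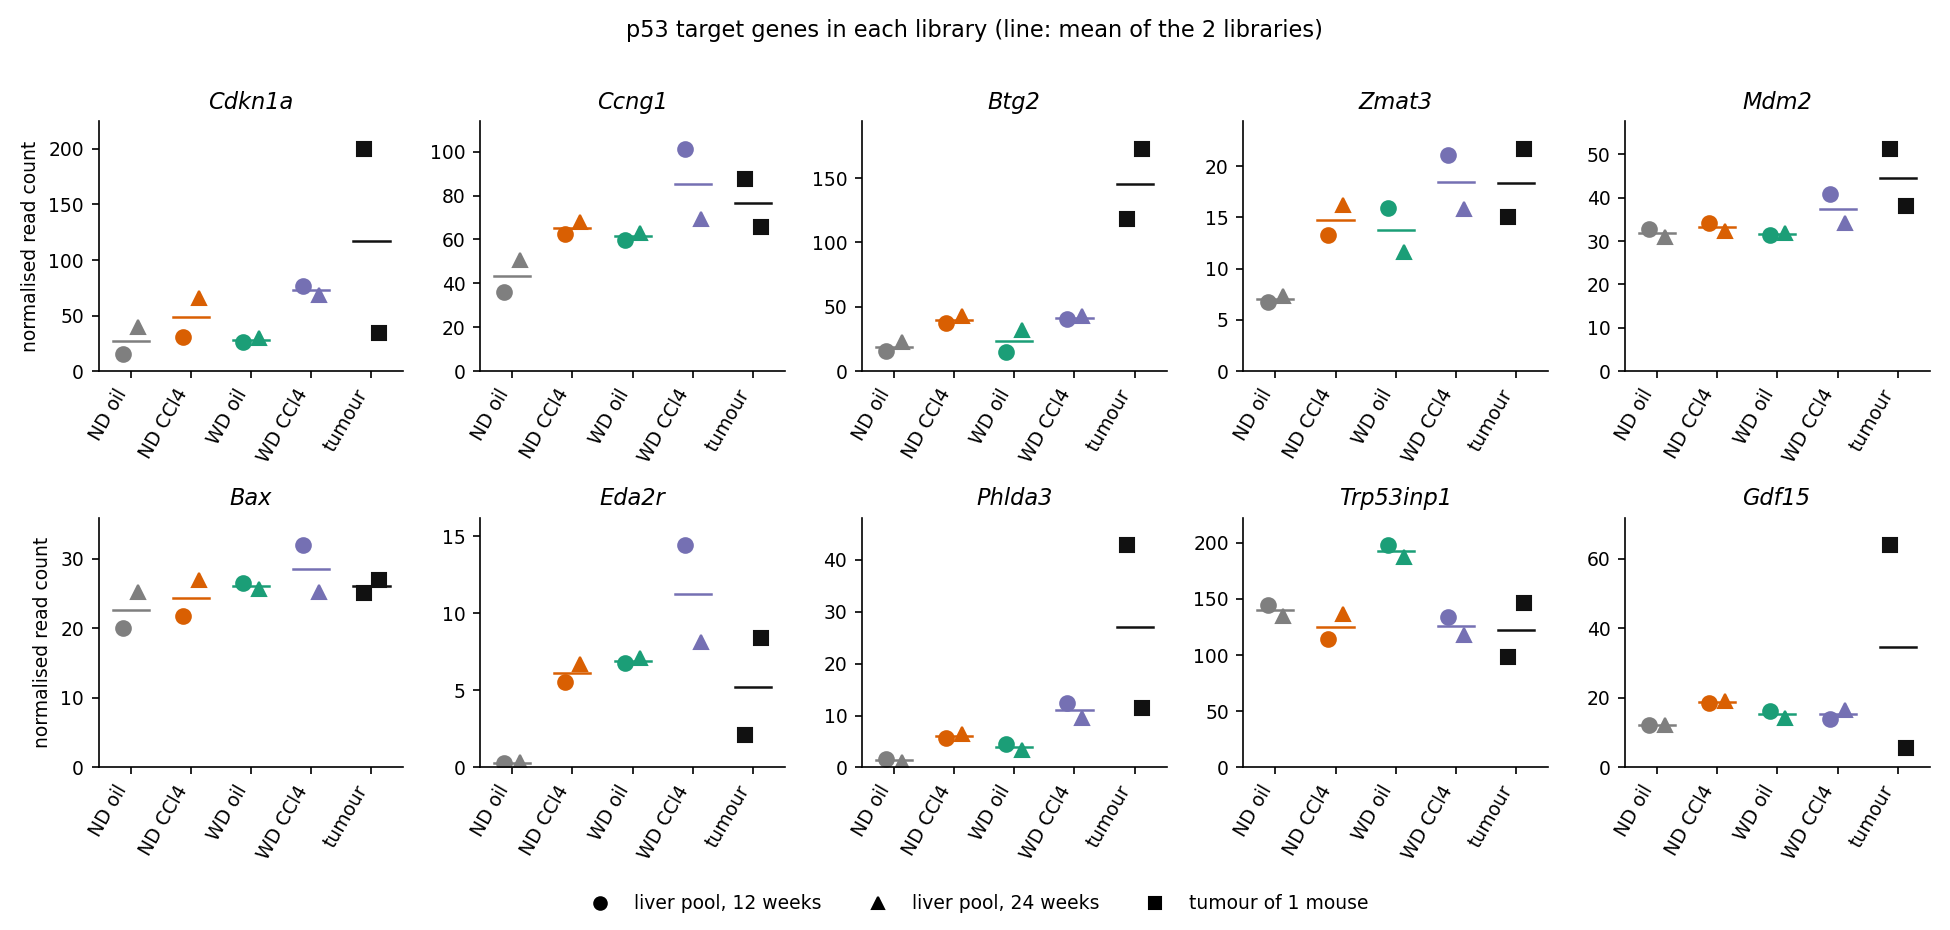
Normalised read counts of the 10 p53 target genes (vertical axes, 1 panel per gene) in the 4 combinations of diet (ND, normal; WD, Western) and treatment and in the tumours. Circles are 12-week pools, triangles 24-week pools, squares tumours of single mice, and lines the mean of the 2 libraries. Eda2r lies near 0 on normal diet with oil and between 5.53 and 14.4 in the other liver pools, and Cdkn1a and Gdf15 lie far apart in the 2 tumours.

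Among the genes of cell death and survival, Eda2r and Phlda3 rose, whereas Bax was called in no comparison except with reads scaled to depth alone, for both exposures together. Eda2r, also called XEDAR, is a receptor of the tumour necrosis factor receptor family that binds a form of ectodysplasin. On normal diet with oil its normalised read count was 0.266 and 0.366 at 12 and 24 weeks, which corresponds to 6 and 8 reads. It was 5.53 and 6.71 on normal diet with CCl4 and 6.79 and 7.08 on Western diet with oil. With both exposures Eda2r was 14.4 and 8.13. The unexposed livers thus lay below the rest, an order not counted over all tested genes. All 4 Western diet pools lay above all 4 normal diet pools, although by a margin of only 6.79 against 6.71. CCl4 on normal diet raised Eda2r by 2.43 ± 0.25 (2 pools against 2, limma adjusted p = 0.000525). Western diet with oil raised Eda2r by 2.59 ± 0.25 (limma adjusted p = 0.00275). Adding 1 to values this low understates the change, which was 4.28 and 4.45 for these 2 comparisons when edgeR was run on the recovered reads. The CCl4 call held whichever library was left out. The diet call was lost without either Western diet oil pool, where Eda2r had limma adjusted p-values of 0.0645 and 0.0728.

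Phlda3 encodes a small protein that competes with the kinase Akt for membrane lipids and so dampens survival signalling. Its normalised read count at 12 and 24 weeks was 1.69 and 1.10 on normal diet with oil and 5.77 and 6.47 with CCl4. On Western diet it was 4.44 and 3.41 with oil and 12.4 and 9.54 with CCl4. The 4 CCl4 pools were all above the 4 oil pools, and within each treatment the Western diet pools were above the normal diet pools of the same duration. Phlda3 rose by 1.43 ± 0.14 with CCl4 averaged over both diets (limma adjusted p = 0.000223), and this call held whichever library was left out. Western diet with oil raised Phlda3 by 1.05 ± 0.19 (limma adjusted p = 0.0361). That diet call was lost without any 1 of its 4 pools, with limma adjusted p-values from 0.075 to 0.365. Bax, which forms pores in the outer mitochondrial membrane, ran only from 20.01 to 31.9 over the 8 pools. Its change with CCl4 averaged over both diets was 0.11 ± 0.12 (limma adjusted p = 0.515).

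Mdm2, the p53-degrading ligase, had 32.7 and 31.0 normalised reads at 12 and 24 weeks on normal diet with oil, and 34.3 and 32.4 with CCl4. The Western diet pools had 31.3 and 31.8 with oil and 40.8 and 34.1 with CCl4. The 8 pools therefore spanned 31.0 to 40.8, with the 12-week pool given both exposures at the top. The change of Mdm2 with CCl4 averaged over both diets was 0.15 ± 0.09 and was not called (limma adjusted p = 0.21), except with reads scaled to depth alone, where Mdm2 changed by 0.36 (limma adjusted p = 0.0118). Trp53 itself ran from 15.2 to 22.8 in the same pools, with a change of 0.09 ± 0.12 (limma adjusted p = 0.598).

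Trp53inp1, a stress protein of autophagy and cell death, went the other way. On normal diet it had 144.5 and 135.1 normalised reads at 12 and 24 weeks with oil and 114.5 and 136.1 with CCl4. On Western diet it had 197.4 and 187.2 with oil and 134.1 and 117.4 with CCl4. Its 2 highest pools were those of Western diet with oil, and CCl4 on Western diet lay 0.55 and 0.67 lower on the log2(value + 1) scale at 12 and 24 weeks. Trp53inp1 fell by 0.61 with CCl4 on Western diet (SE 0.13, limma adjusted p = 0.0291). Averaged over both diets it fell by 0.39 (SE 0.09, limma adjusted p = 0.0126). The call on Western diet was lost without either oil pool or without the 24-week CCl4 pool, with limma adjusted p-values from 0.143 to 0.317. The averaged call for Trp53inp1 was lost without the 12-week CCl4 pool on normal diet or either Western diet oil pool (limma adjusted p from 0.0536 to 0.0721). It was also lost with quantile normalization (-0.23) and with depth-scaled reads that carried no further scaling factor, where the change was -0.17 and the median of all tested genes shifted by 0.18.

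Gdf15 encodes a secreted stress hormone that lowers appetite, and it is also a target of the integrated stress response. It had 12.1 and 12.2 normalised reads at 12 and 24 weeks on normal diet with oil and 18.5 and 18.999 with CCl4. On Western diet it had 16.3 and 14.2 with oil and 13.98 and 16.6 with CCl4. On normal diet the treatments did not overlap, whereas on Western diet they did. How often tested genes do not overlap in 2 pools against 2 was not counted. CCl4 on normal diet raised Gdf15 by 0.59 ± 0.15 (limma adjusted p = 0.0218), and on Western diet its change was 0.00 ± 0.15 (limma adjusted p = 0.996). The difference between these changes, -0.59, was not called (limma adjusted p = 0.474). The Gdf15 call on normal diet was lost without any 1 of its 4 pools, with limma adjusted p-values from 0.0593 to 0.121.

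Across the set, CCl4 on normal diet raised 5 of the 10 members (Eda2r, Phlda3, Btg2, Gdf15 and Zmat3) and lowered none. Of all tested genes, 15.3% rose in that comparison and 10.6% fell. The median change of the 10 members was 0.72, beside 0.00 for all tested genes. DESeq2 on recovered reads called 7 members there, with Cdkn1a and Ccng1 added, beside 26.7% of all tested genes. Cdkn1a (0.83 ± 0.31, limma adjusted p = 0.079) and Ccng1 (0.60 ± 0.20, limma adjusted p = 0.0598) did not pass, but both passed when either pool with both exposures was left out (limma adjusted p from 0.00917 to 0.0243), as did Ccng1 without the 24-week oil pool (0.0492). The number called ran from 3 to 7 when each library was left out in turn. Btg2 was lost without the 12-week CCl4 pool on normal diet or the 24-week oil pool (limma adjusted p = 0.0742 and 0.0725). Zmat3 was lost without the 12-week oil pool or the 24-week CCl4 pool (limma adjusted p = 0.0541 and 0.0983).

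CCl4 on Western diet raised 3 members, Cdkn1a (1.36 ± 0.31, limma adjusted p = 0.037), Phlda3 (1.28 ± 0.19, limma adjusted p = 0.0107) and Btg2 (0.91 ± 0.22, limma adjusted p = 0.0432), and lowered Trp53inp1. There 4.29% of all tested genes rose and 2.52% fell, and the median change was 0.42 for the members and -0.02 for all. Eda2r, at 0.58 ± 0.25, was not called on this diet (limma adjusted p = 0.199). Between 0 and 4 members were called when each library was left out. No member call held without the 24-week Western diet oil pool, which left 1 oil pool on that diet. Calls over all tested genes became far fewer in that fit too, so the loss was not particular to the members. The change was then 1.08 in Cdkn1a, 1.22 in Phlda3 and 1.32 in Btg2. Without the 12-week oil pool the adjusted p was 0.119 for Cdkn1a, 0.0801 for Phlda3 and 0.264 for Btg2. Without the 12-week CCl4 pool it was 0.12 for Cdkn1a, whose change was then 0.86, and 0.156 for Btg2, and leaving out an oil pool of the normal diet also lost Btg2 (0.0592 and 0.0589). Averaged over both diets, CCl4 raised 6 members and lowered 1, beside 19.0% and 14.2% of all tested genes. By ranges, 2 members (Phlda3 and Btg2) had all 4 CCl4 pools above all 4 oil pools, as did 13.6% of tested genes. The number called for the average ran from 3 to 8 with each library left out, and it was 3 (Eda2r, Phlda3 and Btg2) without the 24-week Western diet oil pool. Gdf15 was the added call without the 12-week pool with both exposures (limma adjusted p = 0.0484). A fit that also held the tumours called the same 3, Eda2r, Phlda3 and Btg2, beside 9.41% of all tested genes.

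Western diet without CCl4 raised 2 members, Eda2r and Phlda3, where 1.45% of tested genes rose and 0.546% fell. Zmat3 (0.86 ± 0.20, limma adjusted p = 0.0729) and Ccng1 (0.52 ± 0.20, limma adjusted p = 0.24) were not called. Zmat3 was called by DESeq2 on recovered reads and with reads scaled to depth alone, beside 4.51% and 2.21% of all tested genes. Cdkn1a changed by 0.15 ± 0.31 and went in opposite directions at 12 weeks (0.71) and 24 weeks (-0.42). Eda2r was the 1 member whose 4 Western diet pools all lay above the 4 normal diet pools, as 1.12% of tested genes did. With either of the Western diet oil pools left out, neither member was called, and calls over all tested genes also became far fewer. In mice given CCl4, Western diet gave 0 called members by limma, edgeR and DESeq2, with 0.0474% of all tested genes called by limma. The largest changes of members there were those of Phlda3 (0.74 ± 0.19, limma adjusted p = 0.455) and Eda2r (0.74 ± 0.25, limma adjusted p = 0.595).

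Both exposures together, against neither, raised 6 members and lowered none, while 15.7% of all tested genes rose and 10.2% fell. Eda2r rose by 3.17 ± 0.25 (limma adjusted p = 0.000143), Phlda3 by 2.32 ± 0.19 (0.000183) and Cdkn1a by 1.51 ± 0.31 (0.00888). Zmat3 rose by 1.26 ± 0.20, Btg2 by 1.11 ± 0.22 and Ccng1 by 0.96 ± 0.20. The median was 1.03 for the members and -0.02 for all tested genes. Eda2r, Phlda3 and Zmat3 were called whichever library was left out. Cdkn1a and Ccng1 were lost without the 12-week unexposed pool (limma adjusted p = 0.0591 and 0.0626), and Btg2 without the 24-week one (0.0569). Without the 12-week pool with both exposures, Ccng1 changed by 0.57. With reads scaled to depth alone, 9 members and 28.5% of all tested genes were called. The added members were Mdm2, Bax and Gdf15, and the median of all tested genes shifted to 0.23. These comparisons share pools, so the members' calls in them are not independent of one another.

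**Figure D2:**
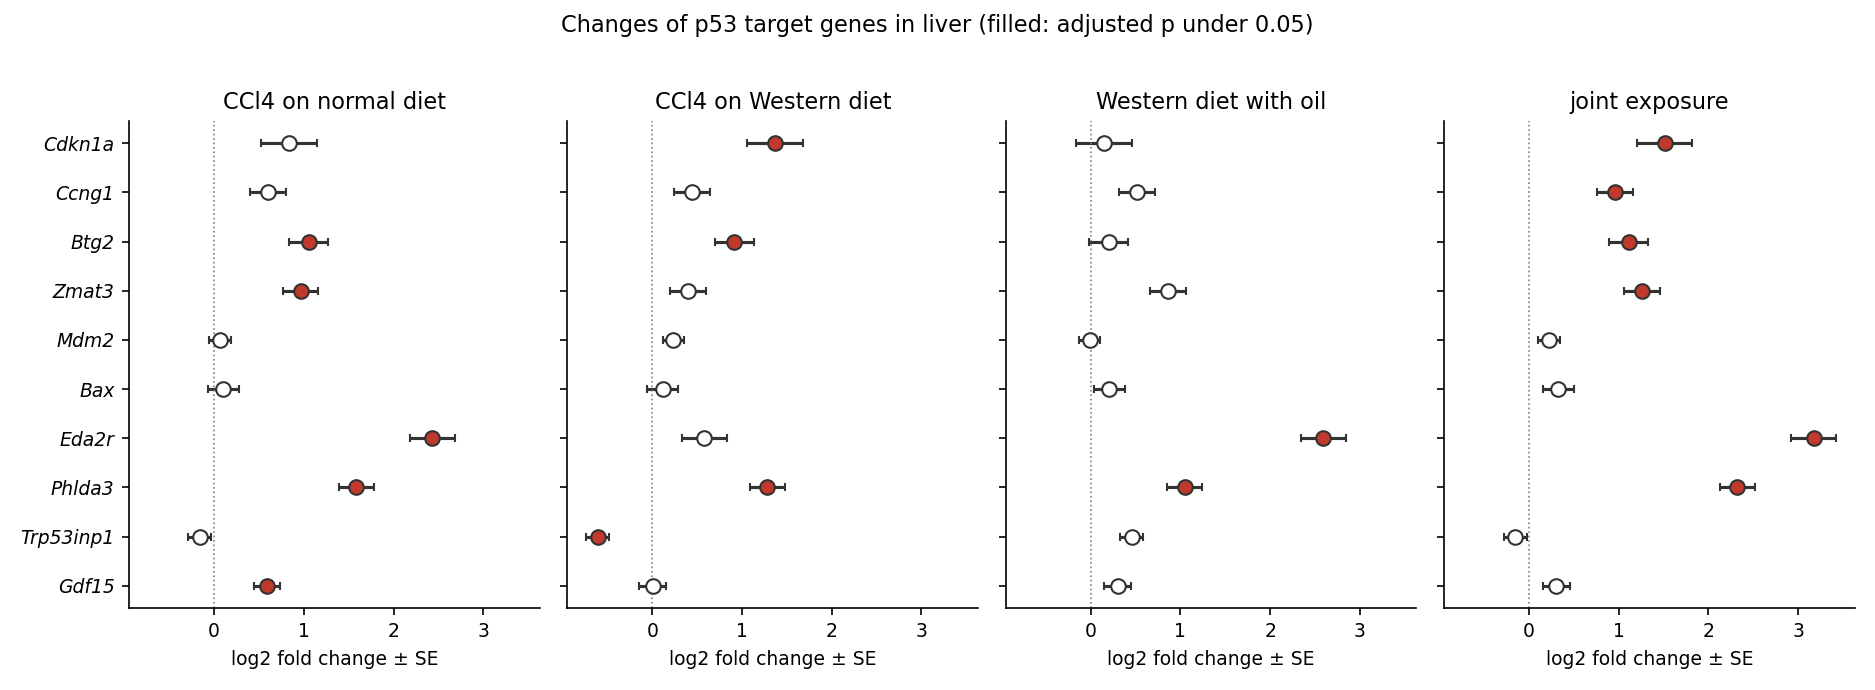
Log2 fold changes on the log2(value + 1) scale (horizontal axes) of the 10 genes in 4 liver comparisons, each of 2 pools against 2. Bars are standard errors of the fit and filled points have an adjusted p under 0.05. Eda2r and Phlda3 lie to the right in the comparisons with the unexposed livers, and Trp53inp1 is the only filled point left of 0.

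Whether the diet altered the response to CCl4 was tested as an interaction, and 0 members were called by limma or edgeR, beside 0.103% of all tested genes. For 3 members the unadjusted p was under 0.05, and how many of all tested genes met that was not counted. Eda2r was the foremost, with an interaction of -1.85 ± 0.36, the response on Western diet minus that on normal diet (unadjusted p = 0.000599, limma adjusted p = 0.142). In the pools matched for duration, CCl4 changed Eda2r by 2.37 and 2.50 on normal diet and by 0.98 and 0.18 on Western diet, so both durations gave the smaller difference on Western diet. DESeq2 on recovered reads called Eda2r for the interaction, as did limma with a pseudocount of 0.1. Without the 12-week pool with both exposures its interaction was -2.30 (limma adjusted p = 0.0415). Trp53inp1 had an interaction of -0.45 (limma adjusted p = 0.526).

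Duration called 0 members by limma, edgeR and DESeq2, and limma called 0.00% of all tested genes. The 2 largest changes among the members were those of Cdkn1a and Btg2. Cdkn1a was 0.60 ± 0.22 higher at 24 than at 12 weeks (limma adjusted p = 0.372), and Btg2 was 0.46 ± 0.15 higher (limma adjusted p = 0.35). For Cdkn1a the 24-week pool was the higher in 3 of 4 combinations, and with both exposures it was the lower. Correspondingly, the difference that both exposures made to Cdkn1a was 2.24 at 12 weeks and 0.78 at 24 weeks.

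Other genes of the pathway were counted from lists chosen by role, with CCl4 averaged over both diets. In that comparison 19.0% of all tested genes rose and 14.2% fell, with a median change of -0.01. The counts for p53 and its regulators, other apoptosis targets and DNA repair targets were near or below those shares. Among p53 and its regulators, 1 of 13 tested genes rose with CCl4 averaged over both diets, with a list median of 0.06. The gene that rose was the checkpoint kinase gene Chek1 (0.61 ± 0.18, limma adjusted p = 0.028). Chek1 had values of only 0.177 to 1.47, and leaving out any of 6 pools lost its call (limma adjusted p from 0.0516 to 0.122). Mdm4, the partner of Mdm2, changed by -0.05 (limma adjusted p = 0.76). The p53 relatives Trp63 and Trp73 had 0 reads in all 10 libraries. By counting error alone, that allows an expected count of up to 3 reads in each. Of 11 other apoptosis targets, 3 rose and none fell, with a median of 0.18. They were the death receptor gene Tnfrsf10b (1.06 ± 0.18), Apaf1, which assembles the apoptosome (0.92 ± 0.15), and Pmaip1, known as Noxa (0.78 ± 0.17). The Pmaip1 call was lost without the 24-week Western diet oil pool (limma adjusted p = 0.0638), and the list had 5 calls without the 24-week oil pool on normal diet. Bbc3, known as Puma, changed by -0.06 (limma adjusted p = 0.718) and the death receptor gene Fas by 0.19 (limma adjusted p = 0.306).

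Of 20 other targets of arrest and metabolism, 9 rose and 3 fell with CCl4 averaged over both diets, with a median of 0.30. Of all tested genes, 19.0% rose and 14.2% fell. Cyclin D1 (Ccnd1), which promotes division rather than arrest, rose by 1.45 ± 0.27. The spindle gene Ckap2 rose by 1.21 ± 0.23, and the adenylate kinase gene Ak1 by 0.89 ± 0.15. Among low genes the edgeR changes were larger, at 2.17 for Tnfrsf10b and 2.28 for Ak1. Sestrin 2 (Sesn2), which restrains growth signalling, rose by 0.54 ± 0.16. The liver glutaminase gene Gls2 fell by 0.91 (SE 0.13), and Dcxr and the thiamine carrier gene Slc19a2 fell too. Without the 24-week Western diet oil pool 7 of the 20 were called. Of 8 DNA repair targets (median 0.14) only Polk, a translesion polymerase gene, rose (0.54 ± 0.15), and leaving out any of 6 pools lost that call (limma adjusted p from 0.0513 to 0.103). Ddb2, a damage-recognition gene, changed by 0.04 (limma adjusted p = 0.844).

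Cell cycle genes that are known to be lowered when p21 acts rose in the same comparison in which Cdkn1a rose. Of 18 tested, 15 rose with CCl4 averaged over both diets and none fell, with a median of 0.95. Of all tested genes, 19.0% rose and 14.2% fell. Mki67, the proliferation marker Ki-67, rose by 1.56 ± 0.22, Top2a by 1.37 ± 0.21, Cdc20 by 1.08 ± 0.19 and Birc5 by 1.08 ± 0.18. The summed level of the 18 genes was 26.0 to 48.6 in the oil pools and 53.7 to 96.3 in the CCl4 pools. Of 12 genes of the integrated stress response, 7 rose and 2 fell, with a median of 0.75. Atf3 rose by 2.25 ± 0.18, Vldlr by 1.10 ± 0.20 and Trib3 by 0.999 ± 0.19, whereas Asns fell by 1.16 (SE 0.21) and Atf4 by 0.76 (SE 0.10).

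**Figure D3:**
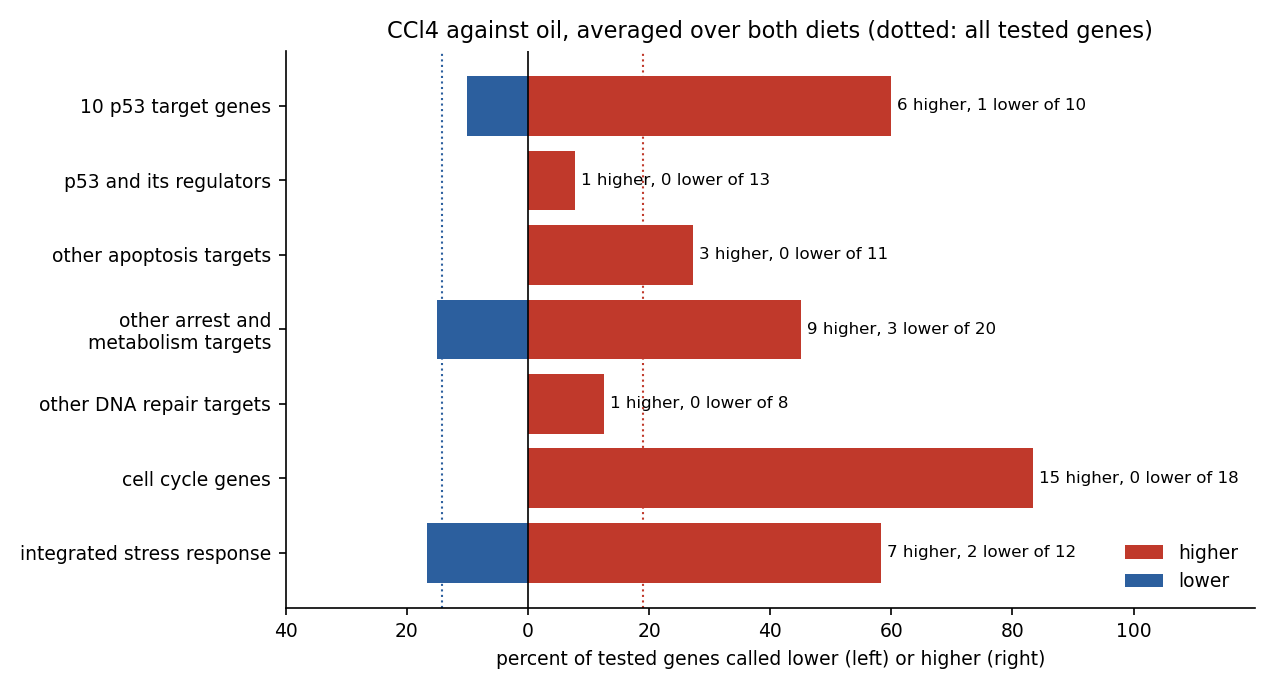
Percent of each list's tested genes called lower (left of 0) or higher (right of 0) with CCl4 averaged over both diets, 4 pools against 4. Dotted lines mark the shares of all 12648 tested genes, 19.0% higher and 14.2% lower. The bar of the 10 p53 target genes shows 6 higher and 1 lower, and the cell cycle genes show 15 of 18 higher. Cell type markers are not drawn.

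Marker genes of several cell types also changed with the same exposures. Summed over 6 hepatocyte genes, the level was 106765 to 141680 in the oil pools and 68671 to 104355 in the CCl4 pools. With CCl4 averaged over both diets 4 of the 6 fell, as did 14.2% of all tested genes. Most of the sum was Alb, at 85283 to 114851 with oil and 54802 to 84121 with CCl4. Alb itself was not called (-0.63 ± 0.41, limma adjusted p = 0.269). The sum of 8 macrophage genes was 186 to 447 in the oil pools and 405 to 800 in the CCl4 pools. Of these 8 genes 7 rose, as did 19.0% of all tested genes. The sum of 6 stellate cell or fibroblast genes was 57.4 to 179 against 292 to 668, and that of 5 bile duct genes 49.7 to 85.9 against 137 to 577. Most of the bile duct sum was Spp1, which is not confined to bile ducts, at 37.3 to 68.9 with oil and 121 to 524 with CCl4, and the other bile duct genes were each at or below 18.8. Western diet with oil also stood above normal diet with oil, at 388 to 447 against 186 to 265 for macrophage genes and 162 to 179 against 57.4 to 57.6 for stellate genes. The sum of 4 endothelial genes overlapped between the treatments, at 117 to 158 with oil and 125 to 181 with CCl4. None of these markers was at 0 throughout a group. The part of these cells in the changes of Eda2r, Phlda3, Cdkn1a, Btg2, Zmat3 and Ccng1 was not tested, and in bulk tissue a change in the number of cells of a type and a change in RNA per cell cannot be told apart.

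Tested genes outside the set with a mean log2(value + 1) at or above the median were ranked by likeness to Cdkn1a. The nearest over the 10 libraries were Cd74, Vim, Ddit4, Cotl1 and Cd44. Likeness was the root-mean-square difference in log2(value + 1) after each gene was centred on its own mean, and it ran from 0.441 for Cd74 to 0.460 for Cd44. Cd74 is the invariant chain of antigen-presenting cells, Vim the filament protein vimentin, and Ddit4 a stress-induced inhibitor of growth signalling. The other p53 target genes were not limited by level. Phlda3, at 0.689, was the nearest of them and Eda2r, at 1.34, the farthest. How many of all tested genes lay nearer than Phlda3 was not counted.

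The 2 tumours lay far apart for Cdkn1a, Gdf15, Phlda3 and Eda2r. Tumour 1 had 199.8 normalised reads of Cdkn1a and tumour 2 had 34.5, beside 68.8 in the 24-week pool with both exposures, so the tumours lay on opposite sides of it. Gdf15 had 63.8 in tumour 1 and 5.67 in tumour 2, beside 16.6 in that pool, an 11.3-fold difference between the tumours. Phlda3 had 42.7 and 11.5 in tumours 1 and 2, beside 9.54. Eda2r ran the other way, with 2.11 in tumour 1 and 8.38 in tumour 2, beside 8.13. Tumour 1 was thus the higher by 5.78-fold for Cdkn1a and 3.72-fold for Phlda3, and the lower by 3.97-fold for Eda2r. Of the 10 members, 4 (40%) differed between the tumours by more than 1 on the log2(value + 1) scale, as did 14.4% of tested genes.

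Btg2 was the only member that stood above all 8 liver pools in both tumours. It had 118.0 and 172.5 normalised reads in tumours 1 and 2, beside 42.8 in the 24-week pool with both exposures, and both tumours exceeded all 8 liver pools, as 10.2% of tested genes did. The other 5 members lay between 0.837 and 1.502 times that pool in both tumours. Mdm2 had 51.2 and 38.0 beside 34.1, and Ccng1 had 87.4 and 65.7 beside 69.1. Zmat3 had 15.01 and 21.7 beside 15.8, Bax 25.1 and 27.0 beside 25.2, and Trp53inp1 98.3 and 146.2 beside 117.4. Trp53 had 39.3 in tumour 1 and 31.5 in tumour 2, above its highest liver pool (22.8), and its change in tumours was 0.78 ± 0.21 (limma adjusted p = 0.133).

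Against the livers with both exposures, in a fit of all 10 libraries, 0 members were called in tumours by limma, where 0.972% of all tested genes were. Btg2 alone had an unadjusted p under 0.05 (1.53 ± 0.29, limma adjusted p = 0.0597). DESeq2 called Btg2 and edgeR called no member. Phlda3 changed by 1.08 ± 0.54, Eda2r by -1.09 ± 0.52, Gdf15 by 0.35 ± 0.92 and Cdkn1a by -0.10 ± 0.77. The counts depended on which tumour was kept. Without tumour 1, where limma called 18.9% of all tested genes, it called 3 members, Btg2 (1.80, adjusted p = 0.00274), Cdkn1a (-1.35, adjusted p = 0.0449) and Gdf15 (-1.29, adjusted p = 0.0025). Without tumour 2, where it called 17.9% of all tested genes, it called 4 members, Btg2 (1.25, adjusted p = 0.0178), Phlda3 (1.99, adjusted p = 0.00177), Gdf15 (1.99, adjusted p = 0.000656) and Eda2r (-1.89, adjusted p = 0.0066). In these fits the remaining tumour is assumed to vary as the liver pools do. Gdf15 was thus called lower or higher according to which tumour entered the fit.

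**Figure D4:**
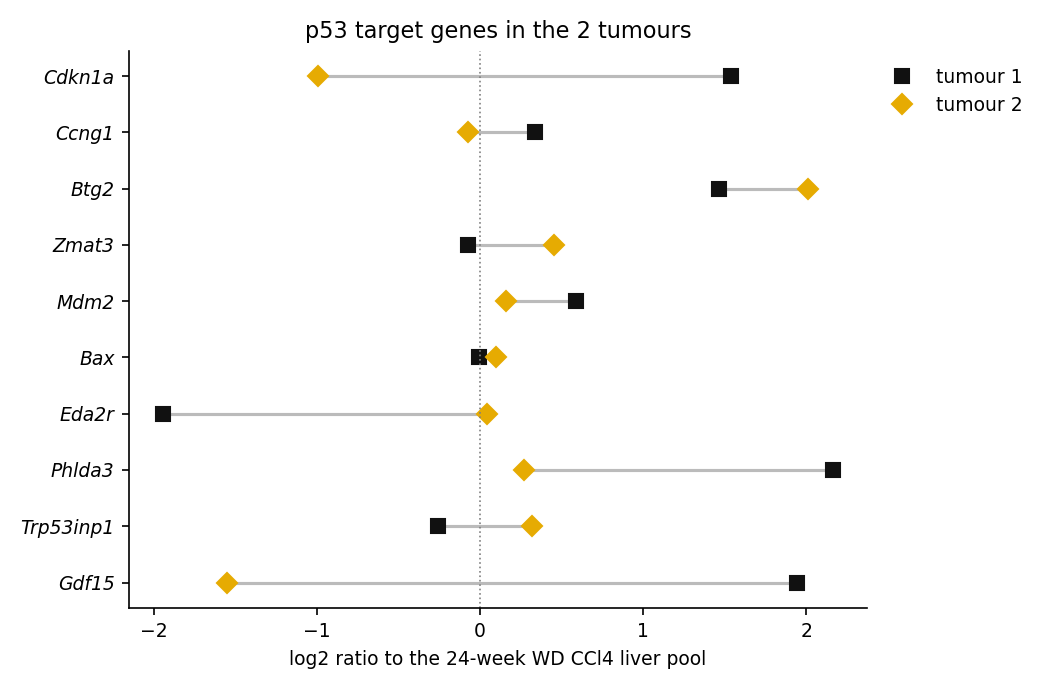
Log2 ratio of each tumour's normalised read count to that of the 24-week liver pool given Western diet and CCl4 (horizontal axis) for the 10 genes. Squares are tumour 1 and diamonds tumour 2, joined by a line. Btg2, Phlda3 and Mdm2 lie right of 0 in both tumours, and Cdkn1a and Gdf15 lie far apart on opposite sides of 0.

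The tumours also differed in genes outside the set. Slc7a11, the cystine carrier, had 91.8 normalised reads in tumour 1 and 0.466 in tumour 2, and Ddit3, a transcription factor of the stress response, had 53.9 and 13.5. The fetal liver genes Gpc3 and Afp ran the other way, at 1.76 and 3.83 in tumour 1 and 371 and 54.1 in tumour 2. Ly6d, listed with them as a tumour marker, had 308 in tumour 1 and 258 in tumour 2. It rose in tumours by 1.66 ± 0.23 (limma adjusted p = 0.0241), and in liver by 4.56 ± 0.14 with CCl4 averaged over both diets. The summed hepatocyte genes were between 76642 and 236602 and the summed cell cycle genes between 129 and 209. Most of the hepatocyte sum was Alb, at 66122 in tumour 1 and 203789 in tumour 2. Of the 6 hepatocyte genes 3 had a positive change and none was called. Tat (374 and 668) and Cps1 (1202 and 1864) lay below all 8 liver pools in both tumours, as did 9.79% of tested genes. The summed macrophage genes were 357 to 477 in tumours and 699 to 800 in the livers with both exposures. These 8 genes had a median change of -0.98, and Gpnmb, the only 1 called, fell by 3.23 (limma adjusted p = 0.0228). The summed T or NK cell genes were 1.71 to 2.70 in tumours against 5.54 to 6.11, with a median change of -0.74 and none called. The 5 bile duct genes had a median change of -1.80 with none called, although their sum, mostly Spp1, was 392.4 to 801 against 137 to 577. Of the other p53 targets, the stress kinase gene Plk3 fell in tumours by 1.49 (SE 0.15, limma adjusted p = 0.0169), with 19.4 and 19.3 beside 53.3. The serine synthesis gene Psat1, of the integrated stress response, rose by 2.45 ± 0.32 (limma adjusted p = 0.0209), with 14.4 and 25.6 beside 3.22. Leaving out any 1 liver pool lost both calls, and calls over all tested genes also became far fewer. The loss was therefore not particular to Plk3 and Psat1. The part of these genes and cells in the differences of Cdkn1a, Gdf15, Phlda3 and Eda2r between the tumours was not tested.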

How the data were processed

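Frozen liver was the RNA source, extracted with an RNeasy kit, and poly-A selected libraries were built from 200 ng by TruSeq, per the labels' protocols. STAR and mm10 are named in the submitters' processing notes, without versions. Which read counter, annotation and scaling method the authors used is not given in the sources used here. Per gene and library the authors deposited a normalised signal. Every value was a whole number of reads (100% of values, to within 0.01 reads) multiplied by a constant of its library, so reads were recovered, and 3 reads correspond to values of 0.0862 to 0.137. Such floors cover counting error only. Columns were matched to samples by name, and none was left over.

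Values were taken as log2(value + 1). A gene was tested if 2 or more libraries reached a value of 1. The tests were limma's (version 3.58.1, R 4.3.3, two-sided, moderated variance with an intensity trend), and the model held a mean for each diet and treatment and a duration term. Liver comparisons used 8 pools (3 residual degrees of freedom), and tumours were compared in a fit of 10 libraries (4). Benjamini-Hochberg adjustment ran over 12648 genes, with a threshold of 0.05. The p-values measure the spread between pools of different duration.

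Alternatives were a pseudocount of 0.1, no filter, quantile normalization, no duration term, all 10 libraries in 1 fit, each library left out, edgeR 4.0.16 and DESeq2 1.42.0 on recovered reads and, added after seeing the data, reads scaled to depth alone, without the scaling factor. A pool left alone in its combination is assumed to vary like the others. The members and lists were chosen with earlier results of these data known. The 10 members were always named, with up to 4 called genes of the largest change per list, or up to 2 as values. Also named were 7 followed genes (Trp53, Mdm4, Bbc3, Pmaip1, Fas, Sesn2 and Ddb2). The 5 genes most like Cdkn1a were taken from genes at or above the median level. Dcxr, Slc19a2, Atf4, Slc7a11, Ddit3, Gpc3 and Afp were named after their values were seen. Data were simulated with 100 genes changed by 1 and 100 changed by 2 (log2). For CCl4 averaged over both diets, the fit recovered 79% and 91% of them, with 24 false calls from 12115 unchanged genes. For CCl4 on normal diet these were 58% and 86%, and for the interaction 35% and 89%.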

Additional observations from a re-analysis of the deposited data

How the results depend on the processing

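The main counts of members called were 5 for CCl4 on normal diet, 4 on Western diet, 7 for the average, 2 for Western diet with oil, 6 for both exposures and 0 for the interaction, duration, tumours and Western diet with CCl4. With no filter on low values, 2 members were called for CCl4 on normal diet and 3 for both exposures. The number was 0 for CCl4 on Western diet and for Western diet with oil. Of all tested genes, 7.68% were then called for CCl4 on normal diet and 10.7% for both exposures (main fit 26% and 25.9%). For CCl4 on Western diet and Western diet with oil, 0.017% and 0% were called (main fit 6.82% and 1.99%). With all 10 libraries in 1 fit, 1 member was called for CCl4 on normal diet and 3 for both exposures, beside 3.46% and 6.29% of genes. For CCl4 on Western diet and Western diet with oil it was 0 members, beside 0.0474% and 0.0316%. For CCl4 averaged over both diets 3 members were called, beside 9.41% of all tested genes. With no duration term (no replicate block), 1 member was called for CCl4 on Western diet, for Western diet with oil and for tumours. Of all tested genes, 1.6%, 0.957% and 3.07% were called in these. With quantile normalization 1 member was called for Western diet with oil, beside 1% of all tested genes. For the interaction, a pseudocount of 0.1 and DESeq2 gave 1 member each, beside 0.119% and 1.04% of all tested genes. DESeq2 gave 1 member for tumours, beside 5.89%. It gave 7 members for CCl4 on normal diet, beside 26.7%, and 3 for Western diet with oil, beside 4.51%. With each library left out, the counts ran from 3 to 7 for CCl4 on normal diet, 0 to 4 on Western diet, 3 to 8 for the average, 0 to 3 for Western diet with oil, 0 to 1 for the interaction and 0 to 4 for tumours. Calls over all tested genes also varied between these fits. The cause was not tested. The edgeR counts were within 1.5 times those of limma.

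In tumours the change in Cdkn1a was 0.20 with no duration term, 0.33 by edgeR and 0.31 by DESeq2, and that in Zmat3 was -0.016 with no duration term and -0.17 without the scaling factor. With each library left out, Bax with CCl4 averaged over both diets ran from -0.0199 to 0.24. In tumours, Cdkn1a ran from -1.35 to 1.15, Ccng1 from -0.64 to 0.13, Bax from -0.48 to 0.0423, Gdf15 from -1.29 to 1.99, Trp53inp1 from -0.33 to 0.23 and Zmat3 from -0.21 to 0.29. Without the scaling factor 9 members were called for both exposures, Bax among them, beside 28.5% of all tested genes. For CCl4 on normal diet 7 members were called, Cdkn1a and Ccng1 among them, beside 28.6%. There Mdm2 was called with CCl4 averaged over both diets (0.36, limma adjusted p = 0.0118), as was Gdf15 (0.50, limma adjusted p = 0.0103). The duration term pairs the pools of equal duration, so the fit without it, given above, is the one with no replicate block. Depth limits Eda2r on normal diet with oil, at 6 and 8 reads.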
